A study of Mus musculus with 12 samples.

Results

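The 9 genes described here encode the core of pyroptosis and necroptosis, which are both lytic forms of cell death. Casp1, Casp4, Gsdmd, Nlrp3, Pycard and Nlrc4 act in pyroptosis, and Ripk1, Ripk3 and Mlkl act in necroptosis. They were chosen by symbol, and all 9 were found among the 49315 gene rows of each of 12 bulk RNA sequencing libraries, and all 9 passed the filter on low counts in every comparison. The libraries were made from TRAMP-C2 tumors, with 3 tumors in each of 4 treatment groups. TRAMP-C2 is a transplantable prostate cancer line derived from a TRAMP mouse, in which a probasin promoter drives SV40 T antigen. Cells were grown under the skin of the right flank of male C57BL/6J mice aged 6 to 8 weeks, and treatment began when tumors measured about 200 mm3.

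All agents were injected into the tumor. The HBSS group received 3 injections of 50 µl of Hank's balanced salt solution, the vehicle of ADU-S100. The cyto-IL-15 group received 10 µg on days 0 and 4 of cyto-IL-15, an interleukin-15 fitted with a lipid tail that anchors it to cell membranes. The ADU-S100 group received 50 µg on days 0, 2 and 4 of ADU-S100, a cyclic dinucleotide that activates STING, the sensor that turns on type I interferon and NF-kB signaling. The combination group received both agents on their own schedules, and every tumor was collected on day 6. Cyto-IL-15 was diluted in PBS, so the groups given it also differ from HBSS in vehicle. The cyto-IL-15 group differs from HBSS in the number of doses as well. Separate tumors are the replicates, and no label says whether tumors shared a cage or litter. RNA came from whole tumor tissue, so fewer cells of a type and less RNA per cell cannot be told apart in any value below.

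In pyroptosis, a sensor such as Nlrp3 recruits the adaptor Pycard (also called ASC), which brings together and activates Casp1. Casp4 is the mouse caspase-11, which binds bacterial lipopolysaccharide in the cytosol directly and needs no such adaptor. Both caspases cut Gsdmd, and the freed end of gasdermin D forms pores in the plasma membrane. In necroptosis, death receptors, Toll-like receptors or the sensor Zbp1 engage Ripk3, in many settings through Ripk1, and Ripk3 phosphorylates Mlkl, which then disrupts the membrane. Macrophages and other myeloid cells are known for inflammasome use, and interferons are known inducers of Casp4, Gbp genes, Zbp1 and Mlkl. Messenger RNA does not report the cleavage, phosphorylation or assembly steps by which these proteins act.

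The genes lie on 8 chromosomes in the GRCm38 coordinates of the count tables. Casp1 (ENSMUSG00000025888, chr9:5298517-5307265) and Casp4 (ENSMUSG00000033538, chr9:5308828-5336783) are neighbors on the plus strand, 1563 bases apart. Gsdmd (ENSMUSG00000022575) lies at chr15:75862339-75867404, Nlrp3 (ENSMUSG00000032691) at chr11:59541568-59566956 and Ripk1 (ENSMUSG00000021408) at chr13:34002363-34035170, all on the plus strand. On the minus strand are Pycard (ENSMUSG00000030793, chr7:127989708-127993867), Ripk3 (ENSMUSG00000022221, chr14:55784996-55788857), Mlkl (ENSMUSG00000012519, chr8:111311797-111338177) and Nlrc4 (ENSMUSG00000039193, chr17:74426295-74459108). Ripk1 overlaps Serpinb6a on the opposite strand, which held a mean of 13622.5 reads per library against 3571.92 for Ripk1. The strand setting of the counting is not given in the sources used here, so the Ripk1 values are uncertain.

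RefSeq promoter windows of 300 bases (GRCm38.p6, 250 bases before to 50 after a transcript start) were matched by symbol for 8 of the 9 genes, 11 windows in all. Upstream sequence is shown for the 3 genes with the smallest adjusted p under ADU-S100 (Casp4, Mlkl and Casp1) and for Nlrp3, the other gene with an NF-kB match. Each is 5′ to 3′ on the strand of the gene, stops before the gene's first counted base, and has letters that match the NF-kB consensus in capitals.
Casp4, chr9:5308599-5308827, plus strand: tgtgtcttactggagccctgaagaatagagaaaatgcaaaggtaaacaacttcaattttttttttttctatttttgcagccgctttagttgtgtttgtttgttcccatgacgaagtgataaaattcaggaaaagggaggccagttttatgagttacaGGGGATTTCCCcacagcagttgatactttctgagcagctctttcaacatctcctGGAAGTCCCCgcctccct
Casp1, chr9:5298267-5298516, plus strand: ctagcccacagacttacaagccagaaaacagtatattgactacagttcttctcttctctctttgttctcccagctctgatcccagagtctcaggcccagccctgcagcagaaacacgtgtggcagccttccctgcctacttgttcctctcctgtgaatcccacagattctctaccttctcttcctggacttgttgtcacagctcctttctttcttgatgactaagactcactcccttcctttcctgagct
Mlkl, chr8:111338206-111338455, minus strand: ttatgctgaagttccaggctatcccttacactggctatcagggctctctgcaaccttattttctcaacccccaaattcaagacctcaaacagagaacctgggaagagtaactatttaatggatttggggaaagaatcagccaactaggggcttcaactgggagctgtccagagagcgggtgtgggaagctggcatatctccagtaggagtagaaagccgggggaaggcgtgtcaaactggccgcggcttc
Nlrp3, chr11:59541319-59541567, plus strand: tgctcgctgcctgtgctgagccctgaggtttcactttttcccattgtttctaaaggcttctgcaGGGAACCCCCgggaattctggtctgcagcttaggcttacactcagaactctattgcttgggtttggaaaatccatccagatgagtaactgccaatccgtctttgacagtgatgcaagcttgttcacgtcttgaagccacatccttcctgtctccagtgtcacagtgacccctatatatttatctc
Windows were searched on both strands for the NF-kB consensus, for the interferon-stimulated response element core (GAAANNGAAA) and for the GAS element (TTCNNNGAA). Casp4 held 3 NF-kB matches, GGGGATTTCC at -93 and GGGATTTCCC at -92 from the transcript start, which overlap each other, and GGAAGTCCCC at -39. A second Casp4 window, which starts 11 bases downstream, contains the same 3 matches. Of the 2 Nlrp3 windows, 1 held an NF-kB match, GGGAACCCCC at -186, and the other held no match of any of these kinds. One of the 2 Ripk1 windows held a response element core match, GAAATCGAAA at -5, and 2 GAS matches, TTCCCGGAA at -108 and -11, of which the latter overlaps the core match. No letters of these kinds were in the windows of Casp1, Pycard, Ripk3, Mlkl or Nlrc4. Of 32851 mouse promoter windows of this length, 8.46% held an NF-kB match, 3.44% a response element core match and 8.30% a GAS match, and a match in letters is a description and not evidence of a binding site.

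Library totals ranged from 48772204 to 103700199 counted reads, and a single gene of the set had between 134 (Nlrc4) and 10291 (Ripk3) reads in a library. Levels are given as CPM, the count scaled to a fixed library total, after TMM normalization, which rescales each library by a factor estimated from most of its genes. Tumor 13 of the cyto-IL-15 group and tumor 28LL of the combination group stood apart, since their log2 levels correlated with those of the other 10 tumors at Pearson's r of 0.870 to 0.915 and 0.801 to 0.908, whereas those 10 correlated with each other at 0.936 to 0.989 (a description over 14143 genes). The fold changes of the 9 genes named for comparisons that include these tumors are therefore also given from a fit of the other 10 tumors. The 9 epithelial and prostate marker genes together summed to only 36.7 to 184 CPM per tumor, and the prostate gene Pbsn was at 0 in every cyto-IL-15, ADU-S100 and combination tumor.

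In HBSS tumors, Ripk3 and Gsdmd had the highest levels per length of transcript and Nlrc4 the lowest. Per kilobase of counted exon, the mean levels were 41.2 ± 1.73 CPM per kb (SD, n = 3) for Ripk3, 36.4 ± 3.21 for Gsdmd, 16.0 ± 0.896 for the necroptosis executioner Mlkl and 8.41 ± 1.12 for Ripk1. Casp1 followed with 7.17 ± 1.13 CPM per kb, Casp4 with 5.47 ± 0.748, Pycard with 3.28 ± 0.578, Nlrp3 with 2.70 ± 0.186 and Nlrc4 with 1.43 ± 0.249. The ranges of 3 HBSS tumors overlapped for the neighbors Ripk3 and Gsdmd, Ripk1 and Casp1, Casp1 and Casp4, and Pycard and Nlrp3. They did not overlap between Gsdmd and Mlkl, Mlkl and Ripk1, Casp4 and Pycard, or Nlrp3 and Nlrc4. In the ADU-S100 group, Casp1 (13.2 ± 1.28 CPM per kb) and Casp4 (11.5 ± 1.5) stood above Ripk1 (6.45 ± 1.73). The Casp4 range lay wholly below the Ripk1 range in HBSS tumors and wholly above it in ADU-S100 tumors, and the Casp1 range overlapped that of Ripk1 in HBSS tumors but not in ADU-S100 tumors.

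**Figure D1:**
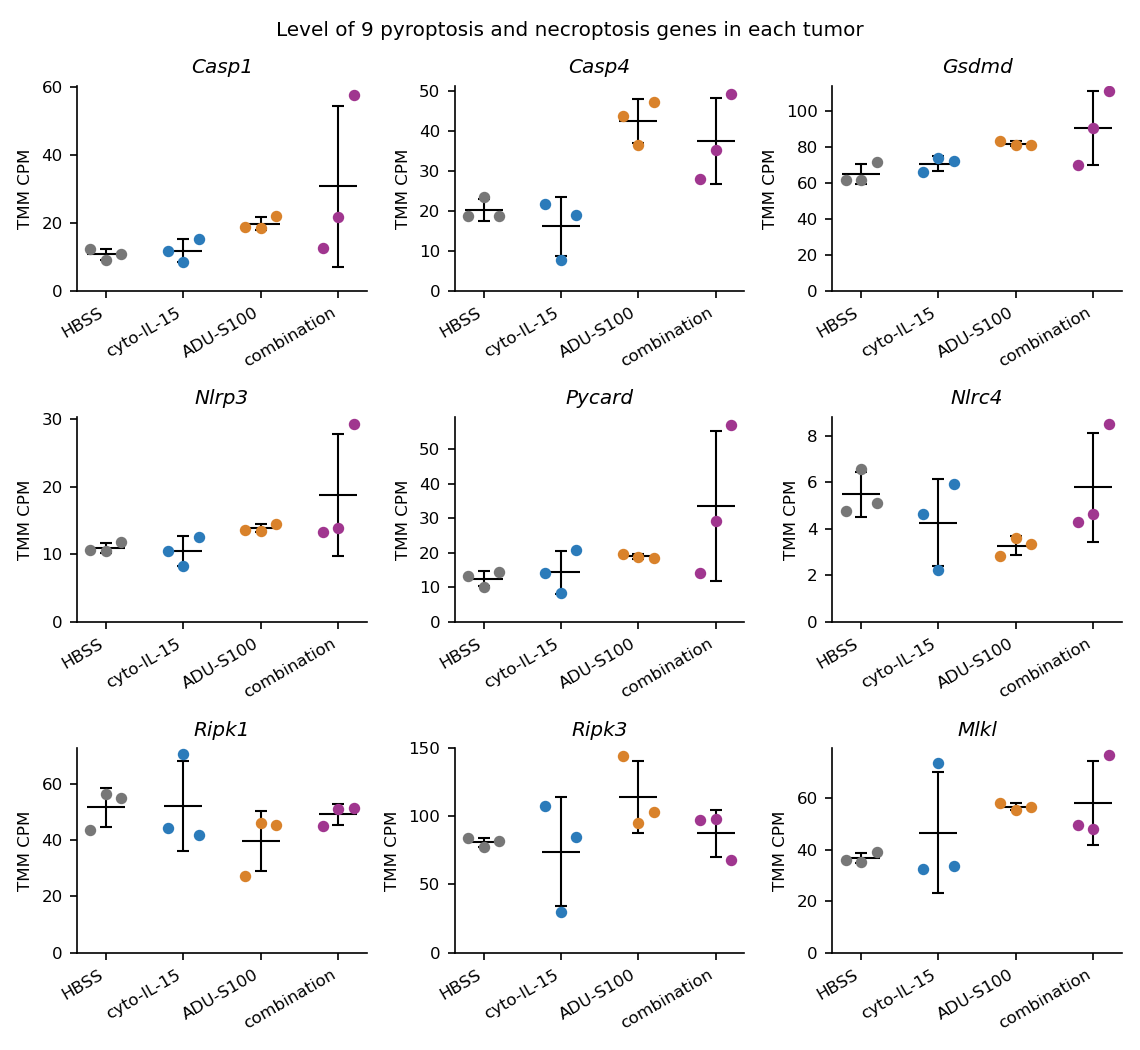
TMM-normalized CPM (y axis, from 0) of each gene in every tumor, by treatment group (x axis); each point is 1 tumor, drawn left to right as in the text, and the bar and whiskers are the mean ± SD of 3 tumors. ADU-S100 tumors sit above all HBSS tumors for 7 of 9 genes, and 1 combination tumor (28LL) is highest of all 12 for Casp1, Casp4, Gsdmd, Nlrp3, Pycard, Mlkl and Nlrc4.

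ADU-S100 alone was compared with HBSS to ask which genes moved under the STING agonist. Casp4 rose 2.10-fold, and it was the 1 gene of the 9 that passed both thresholds used here, that is an adjusted p under 0.05 together with a change of more than 1 on the log2 scale. Casp1 and Mlkl had adjusted p-values under 0.05 with changes under the fold threshold. Pycard, Ripk3, Gsdmd and Nlrp3 were higher in each ADU-S100 tumor than in any HBSS tumor but missed the adjusted threshold, and Nlrc4 was lower in each. Over all 18911 genes tested, 3.53% passed both thresholds, 3.78% had an adjusted p under 0.05 in the upward direction, 16.4% had ADU-S100 tumors all above HBSS tumors and 15.1% all below. Against these shares stand 1 of 9 genes called, 3 of 9 with an adjusted p under 0.05 and higher, 7 of 9 with all tumors above and 1 of 9 with all below. The median log2 fold change was 0.50 over the 9 genes and 0.03 over all genes tested.

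Casp4, the lipopolysaccharide-binding caspase, had 18.8, 23.5 and 18.6 CPM in HBSS tumors 19, 22R and 22LL and 43.8, 36.5 and 47.4 CPM in ADU-S100 tumors 17LL, 18R and 22LR. The lowest ADU-S100 tumor was thus well above the highest HBSS tumor. Its log2 fold change was 1.07 ± 0.15 (SE), with an adjusted p of 0.00636 in edgeR's quasi-likelihood test. The call was lost without tumor 22LR, where the log2 fold change was 0.96 with an adjusted p of 0.0176. In a fit of all 12 tumors, in which the spread of the other groups enters, the adjusted p was 0.405. That fit called 0 of 20132 genes in this comparison.

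Casp1, the caspase of canonical inflammasomes and the genomic neighbor of Casp4, had 12.3, 8.96 and 11.0 CPM in the HBSS tumors and 18.8, 18.4 and 21.9 CPM in the ADU-S100 tumors. All 3 ADU-S100 tumors were above the HBSS range. The log2 fold change was 0.88 ± 0.16 with an adjusted p of 0.0172 by edgeR. Pycard, the adaptor that links sensors to Casp1, had 13.1, 10.0 and 14.3 CPM in HBSS tumors and 19.8, 18.7 and 18.5 CPM in ADU-S100 tumors. These groups did not overlap either, and the ADU-S100 values were close together (SD 0.667 CPM). The edgeR log2 fold change of Pycard was 0.61 ± 0.16 with an adjusted p of 0.0545.

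The inflammasome sensors differed in direction. Nlrp3, a sensor of potassium loss and membrane damage, had 10.6, 10.4 and 11.8 CPM with HBSS and 13.6, 13.4 and 14.5 CPM with ADU-S100, a log2 fold change of 0.34 ± 0.13 (edgeR adjusted p = 0.166). Nlrc4, which senses bacterial flagellin and secretion systems through Naip proteins, had 4.76, 6.56 and 5.09 CPM with HBSS and 2.83, 3.62 and 3.34 CPM with ADU-S100. Neither sensor's groups overlapped, with Nlrp3 higher and Nlrc4 lower in the ADU-S100 tumors. The log2 fold change of Nlrc4 was -0.74 ± 0.21 with an adjusted p of 0.0743 by edgeR. Gsdmd, the pore-forming substrate, had 61.3, 61.5 and 71.3 CPM with HBSS and 83.2, 80.9 and 81.0 CPM with ADU-S100. That was a small difference without overlap, with a log2 fold change of 0.34 ± 0.11 and an edgeR adjusted p of 0.0933.

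Among the necroptosis genes, Mlkl had 36.2, 35.2 and 39.2 CPM in HBSS tumors and 58.1, 55.6 and 56.8 CPM in ADU-S100 tumors. The groups were tight and far apart, with a log2 fold change of 0.63 ± 0.10 and an adjusted p of 0.0122 by edgeR. Ripk3, the kinase that phosphorylates Mlkl, had 83.9, 77.3 and 81.7 CPM with HBSS and 144, 95.2 and 103 CPM with ADU-S100. Tumor 17LL was the high one, and the log2 fold change was 0.50 ± 0.16 with an adjusted p of 0.103. Ripk1, a kinase and scaffold upstream of Ripk3, had 43.7, 56.2 and 54.9 CPM with HBSS and 27.3, 46.0 and 45.5 CPM with ADU-S100. Its groups overlapped, tumor 17LL being the low one, and the log2 fold change was -0.38 ± 0.20 with an adjusted p of 0.293.

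**Figure D2:**
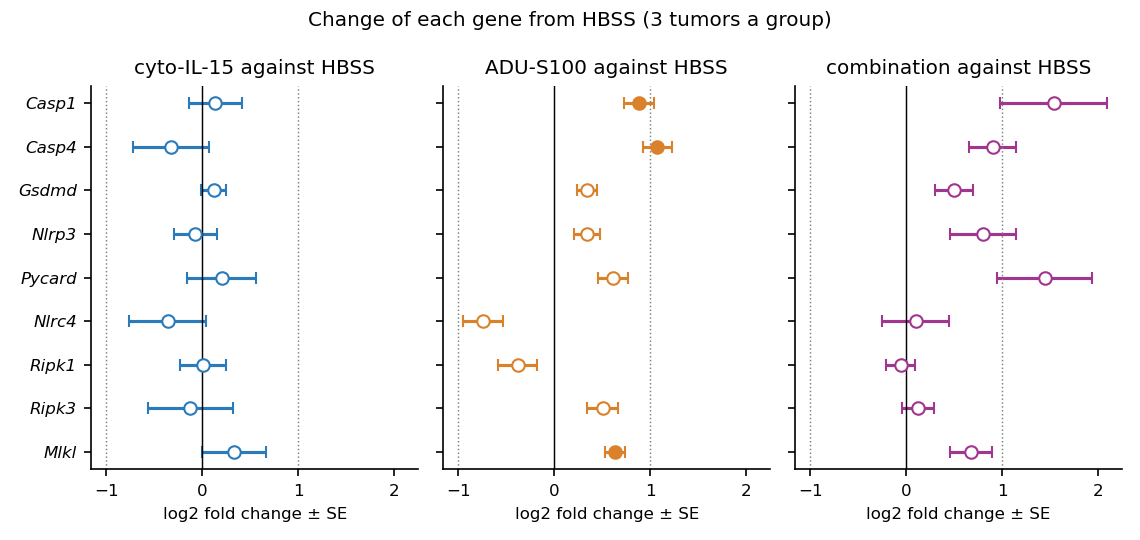
Log2 fold change ± SE from HBSS (x axis) of each gene (y axis) in 3 edgeR fits of 6 tumors each, all of which share the HBSS tumors; filled points have an adjusted p under 0.05 and dotted lines mark the fold threshold of 1. Filled points are Casp4 (1.07), Casp1 (0.88) and Mlkl (0.63) under ADU-S100 alone, and the whiskers are widest for Casp1 and Pycard in the combination group.

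Markers of other cells moved with ADU-S100 as well. Of the tested markers, 8 of 10 inflammatory monocyte, 7 of 12 neutrophil and 5 of 10 T and NK cell genes were called higher than in HBSS tumors and none lower. Over all 18911 genes tested, 3.53% were called. Among resident-type macrophage genes 4 of 15 were called lower and none higher, and among pan-macrophage genes 1 of 12 was called in each direction. The 10 monocyte genes summed to 119 to 233 CPM in HBSS tumors and 346 to 727 CPM in ADU-S100 tumors, the T and NK cell genes to 37.6 to 67.1 and 98.1 to 130.4 CPM, and the 12 pan-macrophage genes to 3038 to 3569 and 1997 to 2212 CPM. The resident-type macrophage sum was 3491 to 4329 CPM with HBSS and 2114 to 2958 CPM with ADU-S100. The sum of 15 neutrophil genes was 704 to 782 CPM against 713 to 832 CPM, with the defining marker Ly6g at 0 in all HBSS tumors. Muscle fiber genes were called in 6 of 11 cases (10.2 to 12.6 CPM against 198 to 2255 CPM) and type I interferon-stimulated genes in 19 of 20 (468 to 701 CPM against 2240 to 2972 CPM), all higher. The part of these cells and of the interferon response in the changes of the 9 genes was not tested.

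In the combination group, 8 of the 9 genes had a log2 fold change above 0 against HBSS and none was called by edgeR. For Casp1, Pycard and Nlrp3, 1 tumor (28LL) carried much of the difference. No gene at all was called in this comparison (0% of 18565), while 3374 genes had an unadjusted p under 0.05 (18.2%), limma voom called 0 and DESeq2 called 1149. In a fit of the 10 tumors without 13 and 28LL, 316 genes were called (1.53% of 20675) and 0 of the 9. Of the 9 genes, 5 had an unadjusted p under 0.05 and 0 were called by DESeq2 or limma voom. Combination tumors lay all above the HBSS tumors for 4 of the 9 genes (Casp1, Casp4, Nlrp3 and Mlkl) and all below for none, against 15.0% and 15.2% of all genes tested. The median log2 fold change was 0.68 over the 9 genes and 0.01 over all genes.

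Casp1 had 12.7, 21.7 and 57.8 CPM in combination tumors 20L, 22 and 28LL, and Pycard had 14.1, 29.3 and 56.9 CPM. For both genes tumor 20L was at or near the HBSS range and tumor 28LL was several times above it, at 5.38 times the HBSS mean for Casp1 and 4.57 times for Pycard. The log2 fold changes were 1.54 ± 0.56 for Casp1 and 1.44 ± 0.50 for Pycard, with adjusted p-values of 0.238 and 0.229 by edgeR. In the 10 tumors they were 0.67 ± 0.23 and 0.79 ± 0.28, with adjusted p-values of 0.152 and 0.160. Casp4 was more even, with 27.9, 35.4 and 49.2 CPM. All 3 of these tumors were above the HBSS range, with a log2 fold change of 0.90 ± 0.24 (edgeR adjusted p = 0.194) and of 0.63 ± 0.17 in the 10 tumors (adjusted p = 0.0768).

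Nlrp3 had 13.3, 13.9 and 29.3 CPM and Mlkl had 49.6, 48.2 and 76.9 CPM in combination tumors 20L, 22 and 28LL. In tumors 20L and 22 both genes were above the HBSS range. Nlrp3 was at 1.21 and 1.26 times the HBSS mean there, and Mlkl at 1.35 and 1.31 times. In 28LL the 2 genes were at 2.67 and 2.09 times the HBSS mean. Their edgeR log2 fold changes of 0.80 ± 0.34 and 0.68 ± 0.22 (adjusted p of 0.285 and 0.217) were 0.30 ± 0.15 and 0.40 ± 0.10 in the 10 tumors (adjusted p of 0.290 and 0.0720). Gsdmd had 69.7, 90.3 and 111 CPM, with tumor 20L inside the HBSS range and a log2 fold change of 0.49 ± 0.20 (edgeR adjusted p = 0.263), which was 0.30 ± 0.13 in the 10 tumors (adjusted p = 0.246). The remaining genes showed little net difference, as Nlrc4 had 4.27, 4.61 and 8.49 CPM, Ripk1 had 44.9, 51.1 and 51.6 CPM and Ripk3 had 97.0, 98.3 and 67.8 CPM, with log2 fold changes of 0.10, -0.06 and 0.12 (-0.31, -0.11 and 0.26 in the 10 tumors). Tumor 28LL was the highest of its group for Nlrc4 but the lowest for Ripk3.

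Tumor 28LL also had the highest summed level of several marker lists. Its inflammatory monocyte genes summed to 2108 CPM, against 335 and 638 CPM in tumors 20L and 22, its pan-macrophage genes to 4597 CPM, against 2435 and 3329 CPM, and its T and NK cell genes to 578 CPM, against 100.4 and 246 CPM. Interferon-stimulated genes followed the same order of tumors, with 1148, 1725 and 4425 CPM in 20L, 22 and 28LL, and muscle fiber genes did too, with 68.0, 985 and 5213 CPM. The resident-type macrophage sum was 2504, 3469 and 3528 CPM and the neutrophil sum 999.7, 685 and 606 CPM. What these cells contributed to the levels of Casp1, Pycard and Nlrp3 in tumor 28LL was not tested.

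**Figure D3:**
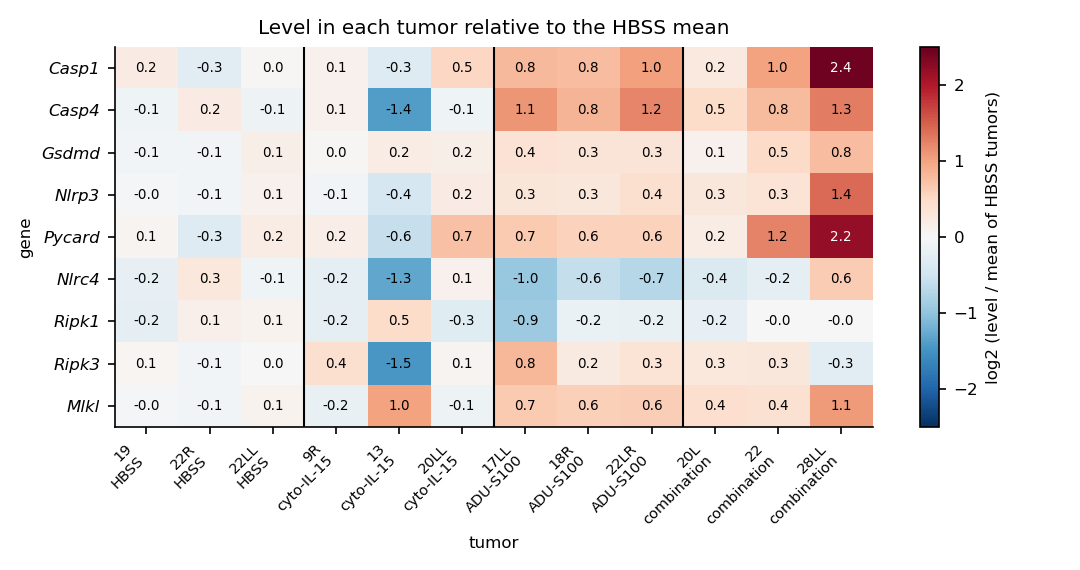
Level of each gene (rows) in each tumor (columns, grouped by treatment) as the log2 ratio to the mean of the HBSS tumors, printed in each cell and colored from blue (lower) to red (higher). Tumor 28LL is highest for Casp1 and Pycard, while tumor 13 is low for Casp4, Ripk3 and Nlrc4 and high for Mlkl.

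With cyto-IL-15 alone no difference from HBSS was detected for any of the 9 genes. None was called and none had an unadjusted p under 0.05, out of a background of 0% called, with 706 of 18594 genes at an unadjusted p under 0.05, 110 called by DESeq2 (none of the 9) and 0 by limma voom. Log2 fold changes ran from -0.36 (Nlrc4) to 0.33 (Mlkl), with a median of 0.01 against 0.04 over all genes, and in the 10 tumors from -0.27 (Ripk1) to 0.48 (Pycard). In no case did the groups separate, while 4.87% of all genes had every cyto-IL-15 tumor above and 5.71% every cyto-IL-15 tumor below the HBSS tumors.

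Tumor 13 set most of the spread of 5 genes in the cyto-IL-15 group. In tumors 9R, 13 and 20LL, Casp4 had 21.7, 7.67 and 19.0 CPM, Ripk3 had 108, 29.5 and 85.1 CPM, and Nlrc4 had 4.64, 2.22 and 5.90 CPM. Tumor 13 was thus the lowest of all 12 for these genes. Mlkl went the other way, with 32.4, 73.9 and 33.6 CPM, and so did Ripk1, with 44.2, 70.5 and 41.7 CPM. Pycard varied as well, with 14.0, 8.35 and 20.7 CPM and the highest value in tumor 20LL, and the ranges were 8.55 to 15.3 CPM for Casp1, 8.24 to 12.6 for Nlrp3 and 65.7 to 73.6 for Gsdmd. In tumor 13 the inflammatory monocyte genes summed to 97.0 CPM, against 315 and 301 CPM in 9R and 20LL, and the resident-type macrophage genes to 1603 CPM, against 3128 and 5237 CPM. The neutrophil sum was 184 CPM in tumor 13 and 794 to 1026 CPM in the other 2, and the part of these cells was not tested.

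The groups given 1 agent, and the groups that differ by 1 added agent, were compared directly as well. Between cyto-IL-15 and ADU-S100 none of the 9 genes was called by edgeR (background 0.0855% of 18708 genes), DESeq2 or limma voom, and 2 had an unadjusted p under 0.05, as did 7.85% of all genes. Casp4 had a log2 fold change of 1.38 ± 0.38 (adjusted p = 0.524), and without tumors 13 and 28LL it was called in the fit of 10 tumors, at 1.05 ± 0.17 (adjusted p = 0.0171), where 1.13% of all genes were called. Mlkl in the same 10 tumors had 0.77 ± 0.11 (adjusted p = 0.00671), against 0.26 ± 0.34 (adjusted p = 0.812) with tumor 13 in the fit of 6. Between cyto-IL-15 and the combination no gene of the 9 was called and 1 had an unadjusted p under 0.05, where 0% of all genes were called, 926 had such a p, DESeq2 called 112 and limma voom 0.

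Adding cyto-IL-15 to ADU-S100 gave no call among the 9 genes either. Log2 fold changes from ADU-S100 to the combination ran from -0.38 (Ripk3) to 0.83 (Nlrc4 and Pycard), which were -0.22, 0.44 and 0.20 in the 10 tumors, and none had an unadjusted p under 0.05. Over all genes 0% were called, 802 had an unadjusted p under 0.05, DESeq2 called 7 (none of the 9) and limma voom 0. Nlrc4 came nearest, with 2.83, 3.62 and 3.34 CPM under ADU-S100 and 4.27, 4.61 and 8.49 CPM under the combination. The log2 fold change was 0.83 ± 0.35 with an adjusted p of 0.884 by edgeR. It was 0.44 without tumor 28LL, the highest of the 6, and 0.74 to 1.00 without any other.

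Pooling the 6 tumors that received ADU-S100 against the 6 that did not, in an additive fit of both agents, Casp4 was again the 1 gene called. It ranged from 7.67 to 23.5 CPM (median 18.9) without ADU-S100 and from 27.9 to 49.2 CPM (median 40.1) with it, so that the 6 and 6 tumors did not overlap. The log2 fold change was 1.14 ± 0.23 with an adjusted p of 0.0354 by edgeR. Nlrp3 was the other gene without overlap, with 8.24 to 12.6 CPM (median 10.6) against 13.3 to 29.3 CPM (median 13.7), a log2 fold change of 0.59 ± 0.21 and an adjusted p of 0.146 (0.30 ± 0.10 and 0.0909 in the 10 tumors). Of all 19381 genes tested, 1.24% were called, 1.17% were higher with an adjusted p under 0.05, 1.97% were higher without overlap and 1.64% lower without overlap, against 1, 1, 2 and 0 of the 9 genes.

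The pooled call of Casp4 was sensitive to the tumors included. It was lost when any of 11 tumors was left out. In the 10 tumors without 13 and 28LL the log2 fold change was 0.90 ± 0.13, under the fold threshold, with an adjusted p of 0.00244, and 2.69% of all genes were called. Casp1 had a pooled log2 fold change of 1.13 ± 0.32 (edgeR adjusted p = 0.0825) and was called by DESeq2 (adjusted p = 0.0146). Its log2 fold change in the 10 tumors was 0.67 ± 0.17, under the fold threshold, with an adjusted p of 0.0386. In the 10 tumors Mlkl had 0.61 ± 0.07 with an adjusted p of 0.000663, against 0.47 ± 0.21 (adjusted p = 0.217) in all 12. The other pooled log2 fold changes were 0.91 for Pycard, 0.37 for Ripk3, 0.35 for Gsdmd, -0.15 for Nlrc4 and -0.23 for Ripk1, with edgeR adjusted p-values from 0.111 to 0.832. Without tumors 13 and 28LL Pycard was at 0.50, Ripk3 at 0.31, Gsdmd at 0.29, Nlrc4 at -0.54 and Ripk1 at -0.16, with adjusted p-values from 0.0683 to 0.575.

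Neither the pooled cyto-IL-15 effect nor the interaction of the agents gave a call. For cyto-IL-15, log2 fold changes of the 9 genes lay between -0.25 (Casp4 and Ripk3) and 0.52 (Pycard), or between -0.21 (Casp4) and 0.34 (Pycard) in the 10 tumors, and none of the 12-tumor effects had an unadjusted p under 0.05. Over all genes 0% were called, 1493 had an unadjusted p under 0.05, DESeq2 called 80 (none of the 9) and limma voom 0. The interaction, which asks whether the effect of 1 agent differs in the presence of the other, was largest for Nlrc4 at 1.19 ± 0.55 with an adjusted p of 0.9997 by edgeR, and was 0.50 in the 10 tumors. None of the 9 genes had an unadjusted p under 0.05 for it, and over all genes edgeR, DESeq2 and limma voom called 0 (0%), with 461 at an unadjusted p under 0.05 in edgeR.

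Other genes of the pathways were read in 6 lists of 63 genes by role. Under ADU-S100 alone the clearest of these lists was the guanylate-binding and immunity-related GTPases that expose bacterial lipopolysaccharide to caspase-11, of which 5 of 5 were called higher and none lower (median log2 fold change 1.52). In the same comparison 3.53% of all 18911 genes tested were called, and 19 of 20 type I interferon-stimulated genes were called higher. Gbp2 had 120.3, 93.2 and 103 CPM in HBSS tumors 19, 22R and 22LL and 177, 347 and 386 CPM in ADU-S100 tumors 17LL, 18R and 22LR. Gbp3 had 62.5, 47.6 and 52.1 CPM and then 209, 221 and 281 CPM. No ADU-S100 tumor was within the HBSS range for either gene, and by edgeR the log2 fold changes were 1.52 ± 0.28 for Gbp2 (adjusted p = 0.0257), 2.14 ± 0.16 for Gbp3 (0.000695), 1.45 ± 0.20 for Gbp5 (0.00612) and 1.20 ± 0.15 for Gbp7 (0.00460). Gm12250, the fifth, had 1.68 ± 0.33 (0.0335). How reads that match several members of these families were counted is not given in the sources used here.

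Of 12 genes listed as necrosome inputs, which are receptors, ligands, sensors and adaptors upstream of Ripk3 together with the RNA-editing enzyme gene Adar, 3 were called higher and none lower (median log2 fold change 0.48). The share called over all genes tested was 3.53%. Zbp1, a Z-nucleic acid sensor that engages Ripk3 directly, had 30.5, 15.2 and 33.6 CPM in HBSS tumors and 115, 118 and 140.3 CPM in ADU-S100 tumors. The lowest ADU-S100 tumor was more than 3 times the highest HBSS tumor, and the log2 fold change was 2.24 ± 0.29 with an adjusted p of 0.00887 by edgeR. In combination tumors 20L, 22 and 28LL Zbp1 had 60.9, 94.6 and 254 CPM, all above HBSS, with a log2 fold change of 2.39 ± 0.61 that was not called (adjusted p = 0.191). In the 10 tumors it was 1.55 ± 0.30 and was called (adjusted p = 0.0349). The death ligand genes Fasl (1.47 ± 0.25, adjusted p = 0.0130) and Tnf (1.42 ± 0.25, adjusted p = 0.0151) were the other inputs called under ADU-S100. Fasl was low there, at 2.22 to 2.95 CPM against 0.875 to 1.06 CPM. Adar, which is known to restrain Zbp1 rather than to engage Ripk3, had 0.65 ± 0.14 with an adjusted p of 0.0293, under the fold threshold.

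Of 6 genes of interleukin-1 family cytokines and their antagonists, 2 were called higher under ADU-S100 by edgeR, Il1rn and Il18bp, where 3.53% of all genes were called. DESeq2 and limma voom each called Il33 as well. Il1rn, the interleukin-1 receptor antagonist, went from 2.67, 2.83 and 4.90 CPM to 9.97, 8.86 and 15.8 CPM (1.73 ± 0.31, edgeR adjusted p = 0.0184), and Il18bp, which binds interleukin-18, from 8.57, 5.06 and 8.09 CPM to 13.3, 22.2 and 20.9 CPM (1.38 ± 0.25, adjusted p = 0.0203). Il33, the gene of an interleukin-1 family alarmin, had the largest difference of the list, with 3.38 to 8.11 CPM in HBSS tumors and 12.8 to 32.3 CPM in ADU-S100 tumors. These ranges did not overlap, and its log2 fold change of 1.99 ± 0.47 missed the edgeR threshold (adjusted p = 0.0621; 0.00622 by DESeq2 and 0.0466 by limma voom). Il33 stood at 717 CPM in cyto-IL-15 tumor 13 and 122 CPM in combination tumor 28LL, against 4.14 to 10.2 CPM in the other 4 tumors of these groups. Il1b, the interleukin-1β gene, was added once its values had been seen, and had 7.09, 8.06 and 4.90 CPM with HBSS, 7.78, 4.59 and 7.23 CPM with ADU-S100 and 7.74, 8.00 and 79.7 CPM with the combination. Its level was raised in tumor 28LL alone among these 9 tumors. Among inflammasome sensors and licensing factors 1 of 11 tested was called higher, Mefv, the gene of the sensor pyrin, with 2.23 to 2.92 CPM in HBSS tumors and 7.75 to 13.0 CPM in ADU-S100 tumors (1.98 ± 0.24, edgeR adjusted p = 0.00373). The list median was -0.03, so the rest of the sensors were spread around 0.

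Of 10 other gasdermins and membrane rupture genes only 2, Gsdme and Ninj1, passed the filter on low counts and 0 were called by edgeR, DESeq2 or limma voom, with 1 at an unadjusted p under 0.05 in edgeR (23.9% of all genes had such a p), and Gsdmc3 was at 0 in all HBSS and all combination tumors. Of 18 brakes on pyroptosis and necroptosis, such as the caspase-8 complex and ubiquitin editing enzymes, 0 were called by edgeR, DESeq2 or limma voom (median 0.11), and 6 had an unadjusted p under 0.05 in edgeR. At an adjusted p under 0.05 but under the fold threshold were Card19 (0.95) and Chmp4b (0.51), higher, and Cyld (-0.50), lower. Chmp4b belongs to the ESCRT machinery that repairs membranes, and Cyld removes ubiquitin from Ripk1, which is known to favor necroptosis rather than to restrain it. In the pooled ADU-S100 effect the calls were 5 of 5 GTPases (Gbp3 1.99 ± 0.31 and Gbp2 1.51 ± 0.28, edgeR adjusted p of 0.0119 and 0.0239), Zbp1 (2.26 ± 0.33, 0.00992), Tnf (1.86 ± 0.36, 0.0294) and Mefv (2.06 ± 0.41, 0.0343), with 0 in the other lists and none lower. In the 10 tumors 4 of 5 GTPases (all but Gbp7), Zbp1, Tnf, Mefv, Il1rn, Il18bp and Il33 were called, all higher. No gene of any list was called by edgeR from HBSS to cyto-IL-15 or to the combination, where edgeR called no gene at all, while in the 10 tumors Zbp1, Tnf, Fasl, Gbp3, Il1rn and Mefv were called higher under the combination and none of the lists under cyto-IL-15. That fit of 10 tumors called 1.53% of all genes under the combination and 32 of 20675 under cyto-IL-15.

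**Figure D4:**
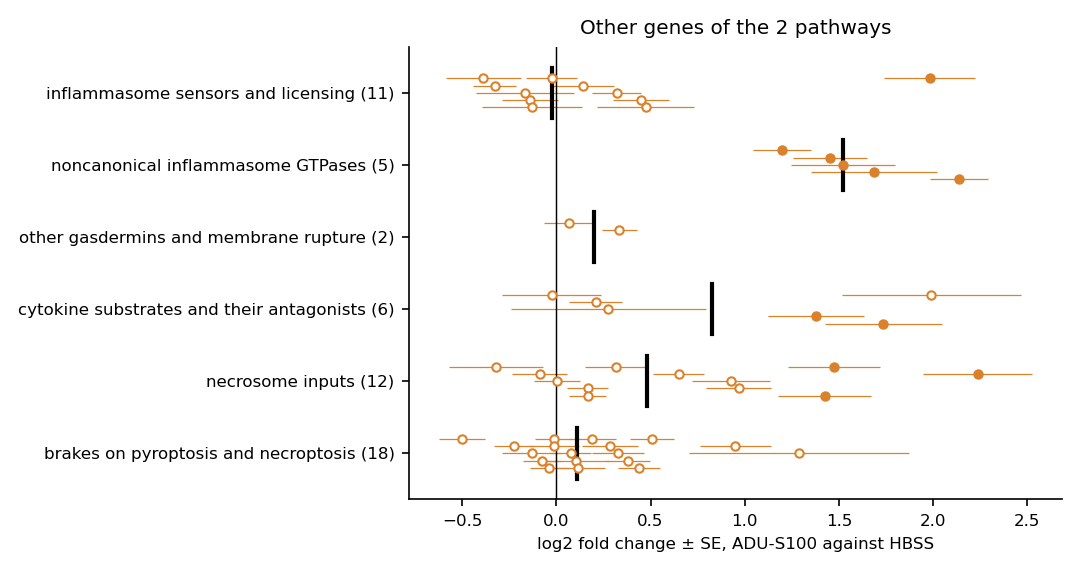
Log2 fold change ± SE from HBSS to ADU-S100 (x axis) of each tested gene of 6 pathway lists (y axis, number tested in brackets); filled points were called, and black bars are list medians. All 5 GTPases are filled, with a median of 1.52, while none of the 18 brakes is, with a median of 0.11. Of all genes tested, 3.53% were called.

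Casp1, Casp4, Pycard and Ripk3 varied most over the 12 tumors, with SDs of the log2 level of 0.73, 0.75, 0.71 and 0.55, against 0.24 for Gsdmd. These SDs and the distances below include tumors 13 and 28LL and were not computed without them. In tumor 13 Casp4 and Ripk3 were at 0.38 and 0.36 times the HBSS mean, and in 28LL Casp1 and Pycard were at 5.38 and 4.57 times. For Casp4, Pycard and Ripk3 the nearest genes in pattern were sought among 14110 genes, by the mean absolute difference of centered log2 levels over the 12 tumors. Nearest to Casp4 were Parp12 (0.16), the RNA sensor gene Ifih1 (0.17) and Gbp9 (0.18). Nearest to Pycard were the leukocyte antigen gene Cd48 (0.12), AI662270 (0.12) and Ms4a6b (0.13). Nearest to Ripk3 were Slc30a2 (0.12), Gpr180 (0.16) and Mapre3 (0.16). The 9 pyroptosis and necroptosis genes were left out of these 14110, so their likeness to each other was not examined. None of the genes named was shared between the lists, and these distances are a description of 12 tumors that share the treatment groups.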

How the data were processed

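RNA was extracted from TRAMP-C2 tumors, and libraries were made with the NEBNext Ultra II kit. Per the labels, the authors' processing notes name STAR 2.5.2b, Trimmomatic 0.36, bcl2fastq 2.20, Subread 1.5.2 with featureCounts, DESeq2 and the builds GRCm38 and mm10. The deposited values are raw counts of reads per gene with exon coordinates and a gene length. Strand setting and treatment of multi-mapping reads are not given in the sources used here. 

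Groups were taken from the labels (3 tumors each). For each of 6 pairs, edgeR 4.0.16 (R 4.3.3) was fitted to the 6 tumors of the pair with TMM factors, filterByExpr (minimum count 10, minimum total 15), a robust quasi-likelihood test and Benjamini-Hochberg adjustment over all tested genes. Calls needed an adjusted p under 0.05 together with a change of more than 1 on the log2 scale. Pooled effects came from an additive fit of 12 tumors and the interaction from the 4-group fit. The standard error is the absolute log2 fold change divided by the square root of F. CPM of single tumors use TMM factors over 12 tumors, and 0.5 CPM was added before logs for tumor correlations (over genes that averaged 1 CPM or more) and for likeness of patterns. The code of the fit was checked on simulated counts with known changes, less spread than these tumors and no outlying tumor. That check does not measure error rates in these data. No pair of libraries was identical. P-values weigh a difference between groups against the spread between tumors.

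Members, gene lists and alternatives were chosen with earlier results of these data known. The text names all 9 genes in every main comparison, from each pathway list up to 4 genes called under ADU-S100 and up to 2 in the pooled effect by smallest p, and the 3 nearest genes of each member whose log2 SD exceeds 0.5 (for Casp1 not reported here); GTPase Gm12250, Il1b, Il33, Adar, Card19, Chmp4b and Cyld were named after their values were seen. Alternatives were DESeq2 1.42.0, limma voom (limma 3.58.1), other size factors, no filter, no fold threshold, 10 tumors, 12 tumors in 1 fit, each tumor left out, and CPM of the library total. Promoter windows came from RefSeq (GRCm38.p6).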

Additional observations from a re-analysis of the deposited data

How the results depend on the processing

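Counts of called genes among the 9 and mean levels per group were read together. Under an alternative, 149 of these values stayed within 1.5 times the main count or 1 SD of the main level. The 19 that did not were all counts. Of the log2 fold changes, 1036 kept their direction and whether the gene was called, 53 reversed, 14 lost the call and 4 gained it. All levels moved by less than 1 SD with CPM of the library total. With 3 tumors a group, and with tumor 13 or 28LL in most fits, small differences are not resolved, and the changes under 1 on the log2 scale of Gsdmd, Nlrp3 and Ripk3 cannot be called by the fold rule at all. No paired analysis was possible because no pair of groups shares more than 1 tumor number in the labels, which do not say what these numbers mark.

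From HBSS to ADU-S100 the count of 1 became 0 with all 12 tumors in 1 fit, where 0 of 20132 genes were called. With no fold threshold it was 3 (Casp4, Casp1 and Mlkl), where 1170 of all 18911 genes passed. It was 0 to 1 with a tumor left out, and 0 without 22LR, where 547 of 19268 genes were called. Casp4 was called in 10 of 12 alternatives (log2 fold change 0.96 to 1.18, adjusted p 3.39e-09 to 0.405), and Casp1 and Mlkl had an adjusted p under 0.05 in 9 of 12 each. From cyto-IL-15 to ADU-S100 the count of 0 became 1 (Casp4) in 10 tumors, where 233 of 20675 genes were called. It was 0 to 1 with a tumor left out, and 1 without tumor 13, where 206 of 19660 genes were called. The pooled ADU-S100 count of 1 became 2 with DESeq2 (Casp1 and Casp4), where 1077 of 49315 gene rows were called. It was 0 in 10 tumors, where 528 of 19633 genes were called. With a tumor left out it was 2 without tumor 20L (534 of 19963 genes called) and 0 without any other (67 to 366 genes called). Casp4 was called in 5 of 17 alternatives of the pooled effect, with adjusted p-values of 0.000563 to 0.0975.

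Log2 fold changes of the opposite sign in the 10 tumors without 13 and 28LL, none of them called, were as follows. From HBSS to cyto-IL-15 they were 0.0027 for Casp4, 0.073 for Nlrp3, -0.27 for Ripk1, 0.25 for Ripk3 and -0.16 for Mlkl, and from HBSS to the combination -0.31 for Nlrc4. From cyto-IL-15 to the combination they were 0.15 for Ripk1 and -0.26 for Nlrc4, and from ADU-S100 to the combination -0.20 for Casp1, -0.029 for Gsdmd, -0.025 for Nlrp3 and -0.21 for Mlkl. The pooled cyto-IL-15 effect was 0.016 for Ripk3 and -0.19 for Mlkl, and the interaction -0.52 for Casp1, -0.43 for Casp4, -0.12 for Gsdmd, -0.098 for Nlrp3 and -0.28 for Pycard. With no filter Ripk1 from HBSS to cyto-IL-15 was -0.018 and Mlkl from ADU-S100 to the combination -0.019, and with limma voom the former was -0.031 and the Gsdmd interaction -0.0040.

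Leaving out 1 tumor at a time also turned the sign of 24 log2 fold changes, all of which were under 1 with every tumor included and none of which was called. From HBSS to cyto-IL-15 the ranges were -0.090 to 0.33 for Casp1, -0.62 to 0.011 for Casp4, -0.15 to 0.53 for Mlkl, -0.23 to 0.080 for Nlrp3, -0.16 to 0.48 for Pycard, -0.26 to 0.14 for Ripk1 and -0.51 to 0.26 for Ripk3. From HBSS to the combination the range was -0.30 to 0.27 for Nlrc4, and from cyto-IL-15 to the combination -0.22 to 0.19 for Ripk1 and -0.14 to 0.63 for Ripk3. From ADU-S100 to the combination they were -0.20 to 1.01 for Casp1, -0.029 to 0.30 for Gsdmd, -0.21 to 0.15 for Mlkl and -0.024 to 0.64 for Nlrp3. The pooled cyto-IL-15 effect ran from -0.012 to 0.53 for Casp1, -0.040 to 0.28 for Mlkl, -0.00022 to 0.45 for Nlrc4 and -0.053 to 0.29 for Nlrp3. The interaction ran from -0.34 to 0.90 for Casp1, -0.17 to 0.45 for Casp4, -0.15 to 0.20 for Gsdmd, -0.55 to 0.22 for Mlkl, -0.010 to 1.01 for Pycard and -0.61 to 0.14 for Ripk3. The cause of these changes of sign was not tested.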
